A study of Mus musculus with 6 samples.

Results

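The genes described here lie on mouse chromosome 9 with starts between 55 and 90 Mb (GRCm38). They were measured in 4T1 cells, a mammary carcinoma line from a BALB/c mouse that lacks the hormone and HER2 receptors and stands for triple-negative tumours. The cells had been passaged 35 times with 0 nM or with 100 nM PFOS (perfluorooctane sulfonate), a fluorinated surfactant that persists in the environment, and each group has 3 poly(A) RNA libraries. The question was what the long exposure changed in the transcriptome. Whether replicate libraries stand for separate cultures is not in the labels, so the spread given here is between libraries and may be technical. They also do not say whether the exposed and unexposed cells were each carried as 1 culture through the passages, in which case the culture and the dose cannot be told apart. Of 28418 genes in the deposited tables, 461 start in the range and 259 of those are protein-coding. The members are the 143 of these whose mean over the 6 libraries reached 2 FPKM (fragment numbers divided by transcript length and sequencing total). Rpl4, Smad3, Pkm, Anxa2, Adam10, Cox5a and Me1 were left out by the rule, and 109 protein-coding genes lay under 2 FPKM. The member nearest that level was Zfp280d, with a mean of 2.05 FPKM and a difference of 0.08, and the gene just under it was Ccpg1, with 1.88 FPKM and a difference of 0.07.

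The region had been picked because its genes stood higher in the 100 nM libraries than in the 0 nM libraries. Everything on that contrast below is therefore a description of the members, with no test. A difference is the mean log2(FPKM + 1) of the 3 libraries at 100 nM minus that of the 3 at 0 nM. That scale understates the change of low genes, so the ratio of mean FPKM is given beside it. As background, neighbouring genes on a chromosome share the DNA copies they are read from, and groups of them can share a chromatin domain. The members belong to no one pathway. They include kinases, small GTPases, replication and mitosis factors, ubiquitin ligases, myosins and metabolic enzymes. Neither DNA copies nor chromatin were measured here. In bulk RNA, fewer cells carrying a difference and a smaller difference in every cell cannot be told apart.

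Of the 143 members, 114 (79.7%) had the higher mean at 100 nM. Their median difference was 0.079, with a middle range of 0.019 to 0.149, and their median ratio was 1.06. Over all 11741 genes tested, 52.6% had the higher mean and the median was 0.005. Over the 8686 protein-coding genes of that level on other chromosomes, 50.4% had the higher mean and the median was 0.001. The differences were small and many genes shared them. They ranged from -0.15 to 0.32, against a median SD between replicates of 0.047.

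The groups did not overlap for 63 members that were higher at 100 nM and for 8 that were lower. Over all genes tested these shares were 13.7% and 13.3%. By limma with Benjamini-Hochberg adjustment, 19 members were called higher and 1 lower, where 1.69% and 2.46% of all genes tested were called. The members were chosen on this contrast, so nothing is read from these counts. The number called higher fell to between 5 and 9 when any 1 of the 6 libraries was left out, and it was 2 without the libraries numbered 3 of both groups. The number with a higher mean stayed between 110 and 117 when any 1 library was left out.

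The shift was not even across the stretch. Genes in chromosomal order were scored as above or below a difference of 0.1, and the contiguous run with the highest score was taken. This run began at Anp32a (start 62.34 Mb) and ended at Anxa2 (start 69.45 Mb). It spanned 7.11 Mb and held 45 protein-coding genes of at least 2 FPKM, 43 of them with a difference above 0. It is called the core below and was defined after the values were seen. It was drawn on these same differences. A higher median inside it than outside, also within the gene lists below, largely follows from how it was drawn. Of the 45 genes, 42 are members, and 41 of these had the higher mean at 100 nM. Their median difference was 0.171 and their median ratio was 1.14. The 44 members before the core had a median difference of 0.019, and the 57 after it had 0.069.

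**Figure D1:**
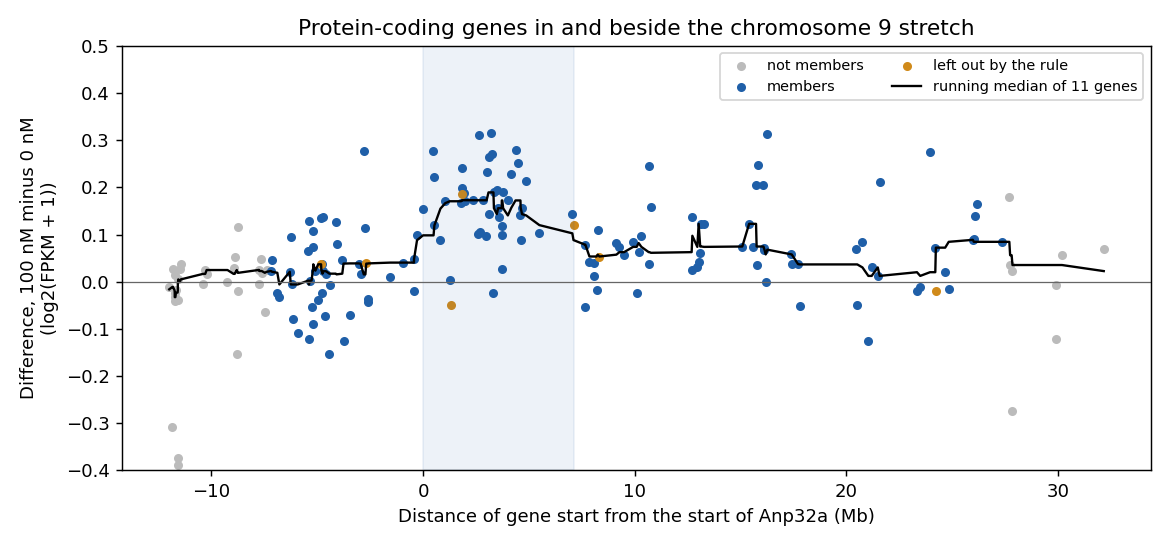
Each point is a protein-coding gene whose mean reached 2 FPKM, placed by the distance of its start from the start of Anp32a (Mb) and by its difference in mean log2(FPKM + 1), 100 nM minus 0 nM. The shaded core holds 42 members with a median of 0.171, and the running median of 11 genes is 0.048 at Kif23 before it and 0.053 at Myo1e after it.

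Promoters on either side of both edges, and those of the core genes Hacd3 and Car12, show what DNA lies where the shift begins, runs and ends. They are RefSeq sequences on GRCm38.p6, read 5′ to 3′ on the gene's strand and stopping before the gene start. Capitals mark a GC box, read as GGGCGG on either strand. They also mark a CCAAT box, read as those letters on either strand, and an E-box, read as CACGTG. Motifs that adjoin run together. The windows are chr9:62122656-62122859 on the minus strand for Glce, the last gene before the core, and chr9:62341093-62341292 on the plus strand for Anp32a, the first gene in it. They are chr9:65021718-65021967 on the minus strand for Hacd3 and chr9:66713436-66713685 on the plus strand for Car12. Those of Ice2, the last member in the core, and Bnip2, the first after it, are chr9:69397748-69397905 and chr9:69989216-69989465, both on the plus strand.
Glce: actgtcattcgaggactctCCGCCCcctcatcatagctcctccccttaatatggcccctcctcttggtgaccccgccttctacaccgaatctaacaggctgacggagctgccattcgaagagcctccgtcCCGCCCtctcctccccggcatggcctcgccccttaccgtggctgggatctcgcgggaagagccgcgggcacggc
Anp32a: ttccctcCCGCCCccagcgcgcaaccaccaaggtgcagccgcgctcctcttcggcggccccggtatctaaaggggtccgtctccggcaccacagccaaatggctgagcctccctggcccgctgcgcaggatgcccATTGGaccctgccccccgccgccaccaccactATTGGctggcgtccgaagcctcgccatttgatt
Hacd3: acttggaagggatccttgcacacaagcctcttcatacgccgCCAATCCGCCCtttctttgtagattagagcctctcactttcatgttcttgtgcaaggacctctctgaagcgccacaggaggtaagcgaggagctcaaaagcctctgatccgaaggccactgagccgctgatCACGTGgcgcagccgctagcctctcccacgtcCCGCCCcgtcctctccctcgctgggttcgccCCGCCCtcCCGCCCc
Car12: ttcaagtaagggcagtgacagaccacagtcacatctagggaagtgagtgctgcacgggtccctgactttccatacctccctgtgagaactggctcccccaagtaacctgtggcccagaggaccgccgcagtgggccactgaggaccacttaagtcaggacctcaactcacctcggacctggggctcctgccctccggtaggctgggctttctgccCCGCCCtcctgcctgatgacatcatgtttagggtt
Ice2: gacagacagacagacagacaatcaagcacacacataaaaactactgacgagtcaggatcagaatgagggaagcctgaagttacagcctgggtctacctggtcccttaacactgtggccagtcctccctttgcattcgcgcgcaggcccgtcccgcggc
Bnip2: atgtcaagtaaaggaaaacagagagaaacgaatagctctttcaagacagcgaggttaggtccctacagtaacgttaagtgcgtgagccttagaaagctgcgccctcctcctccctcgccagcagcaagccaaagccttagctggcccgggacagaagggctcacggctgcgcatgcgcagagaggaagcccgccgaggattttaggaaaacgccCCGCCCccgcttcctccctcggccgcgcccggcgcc

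The 250 bases before the start were searched for these motifs, and for a TATA box (TATAAA) and a cyclic AMP response element, or CRE (TGACGTCA), on both strands, in the 128 members found in the RefSeq table. A GC box lay in 29 of the 36 core promoters found (80.6%), in 69.0% of those before the core and in 64.0% of those after it. It lay in 61.4% of 9349 promoters of protein-coding genes of that level and in 32.7% of all 32851 promoters. Each member counts once, whereas these 9349 promoters outnumber the 9214 genes of that level. Some genes thus count there more than once, and the sets are not strictly alike. A CCAAT box lay in 38.9% of core promoters and in 35.4% of those 9349, and mean GC content was 61.2% and 60.7%. TATA boxes lay in 2.8% of core promoters and 5.9% of the 9349, E-boxes in 5.6% and 8.6%, and CREs in 5.6% and 2.6%. The shown promoter of Glce, outside the core, holds 2 GC boxes, and that of Ice2, inside it, holds none of the 5 motifs. A match describes letters in a window and is not a bound site.

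The first rise at the start of the core was narrow. Kif23, a kinesin of cytokinesis, is the last member but one before it and had 18.2, 18.7 and 18.7 FPKM at 0 nM and 18.2, 18.2 and 18.4 FPKM at 100 nM, so the groups overlapped. Glce, an epimerase of heparan sulfate synthesis, had 7.96, 7.65 and 8.58 FPKM at 0 nM and 8.77, 8.64 and 8.67 FPKM at 100 nM. Its groups did not overlap, though the highest 0 nM library lay close under the exposed ones, and its ratio was 1.08. Anp32a, an acidic nuclear protein that inhibits a phosphatase, had 52.8, 53.8 and 52.9 FPKM at 0 nM and 57.0 FPKM or more in each 100 nM library, with a highest value of 61.1 and a ratio of 1.12. The next member, Fem1b, a substrate adaptor of a cullin ubiquitin ligase, had 17.7, 18.1 and 18.0 FPKM at 0 nM and 21.2, 22.4 and 22.1 FPKM at 100 nM, a ratio of 1.23. The first step from no difference to the level of the core thus fell between Kif23 and Fem1b, with Glce and Anp32a between them. Differences then varied, with 0.22 at Cln6, 0.12 at Pias1, 0.088 at Map2k5 and 0.17 at 2300009A05Rik. They were 0.003 at Aagab and -0.050 at Smad3, which the rule left out. The running median of 11 genes was 0.048 at Kif23, 0.088 at Glce, 0.098 at Anp32a and 0.155 at Map2k5.

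The end of the core was less sharp. Few genes of that level lie there: 1.56 Mb separate the starts of Vps13c, a lipid transfer protein, and Ice2, a subunit of the little elongation complex. Ice2 had 3.30, 3.13 and 3.14 FPKM at 0 nM and 3.68, 3.61 and 3.59 FPKM at 100 nM, with no overlap and a ratio of 1.14. Bnip2, a BCL2-interacting protein and the next member, had 32.9, 33.9 and 32.9 FPKM at 0 nM and 31.7, 32.8 and 31.6 FPKM at 100 nM. Here the exposed libraries lay lower, again without overlap, with a ratio of 0.963. Gtf2a2, a subunit of the general transcription factor TFIIA, came next at 9.79 to 10.1 FPKM against 10.3, 11.2 and 10.3 FPKM. Its ratio was 1.06, close to the median of the members after the core. The running median was 0.143 at Tpm1, 0.120 at Vps13c, 0.103 at Ice2, 0.088 at Anxa2 and 0.053 at Myo1e.

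Both edges moved with the score and the libraries. Against a difference of 0.15, the run began at Anp32a again and ended at Tln2 (67.22 Mb). Against 0.05 it began at Glce (62.06 Mb) and ran on to Ano10 (122.18 Mb), with 243 of 279 genes above 0. The 9 pairs of one 100 nM with one 0 nM library, scored against 0.1, gave a first edge between 61.91 and 64.14 Mb, and 7 of the 9 began at Rplp1, Glce or Anp32a. The last edge lay between 67.22 and 78.43 Mb, and under 71 Mb in 8 of the 9. When each gene was instead scored against the median of all protein-coding genes, the run took nearly the whole chromosome. It then reached from Cfap300 (8.02 Mb) next to Yap1, a coactivator of the Hippo pathway that lay outside it, to Ppp2r3d (124.42 Mb), the last gene, with 393 of 517 genes above 0. So the first edge of the core was found near 62 Mb at all 3 scores of 0.05 to 0.15, whereas the last edge depended on the score.

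**Figure D2:**
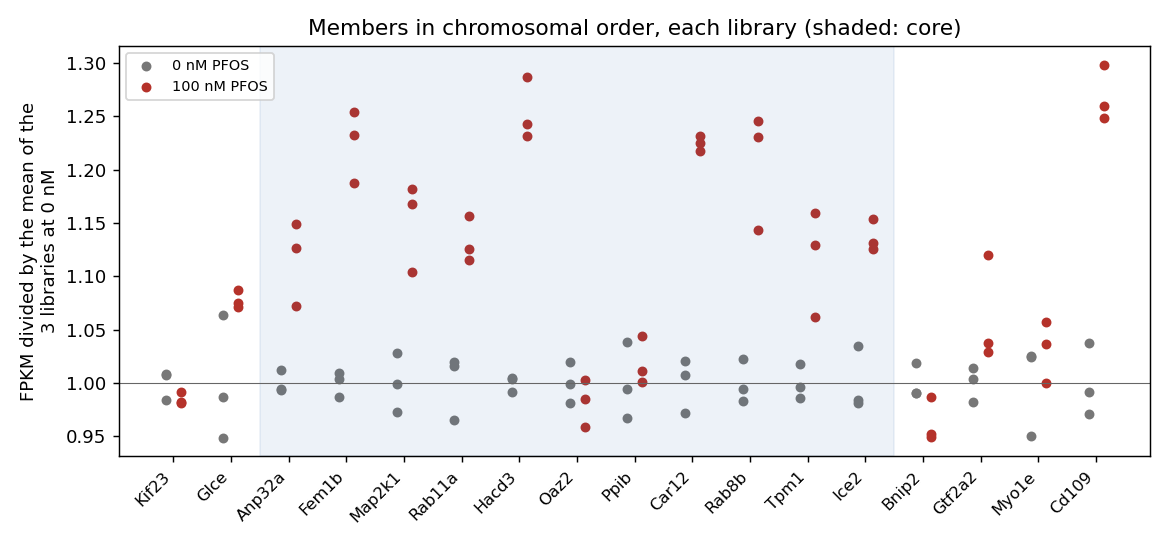
FPKM of each library divided by the mean of the 3 libraries at 0 nM, for 17 members in chromosomal order, with the core shaded. In the core the 100 nM libraries lie above the 0 nM libraries for each gene shown except Oaz2 and Ppib. Outside it, Kif23 and Bnip2 do not lie higher, whereas Glce, the last gene before the core, does.

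Within the core, 33 of 42 members were higher with no overlap between the groups and 0 were lower with no overlap. Over all genes tested these shares were 13.7% and 13.3%. By limma with Benjamini-Hochberg adjustment 16 were called higher, 4 to 8 when any 1 library was left out, and 1 without the libraries numbered 3 of both groups. None was called lower, where 1.69% of all genes tested were called higher and 2.46% lower. At an unadjusted limma p under 0.05, 32 core members (76.2%) were higher and 0 lower, where 10.6% of all genes tested were higher and 10.2% lower. The core was drawn on these differences, so nothing is read from these counts. The middle range of the core members' differences was 0.119 to 0.221, with an SD over genes of 0.077 and a median standard error of 0.038.

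The 6 core genes in the list of cell division and DNA repair all had the higher mean, with a median difference of 0.177. The 5 members of that list outside the core had -0.016. As in the lists that follow, the gap between inside and outside comes largely from how the core was drawn. Tipin, which protects stalled replication forks, had 47.4, 47.4 and 44.1 FPKM at 0 nM and 52.2, 53.9 and 52.5 FPKM at 100 nM, a ratio of 1.14. Pclaf, a PCNA-binding protein, had 25.4, 25.1 and 24.2 FPKM against 28.4, 27.4 and 27.8 FPKM, a ratio of 1.12. In both genes every exposed library lay above every unexposed one. The others were the kinetochore protein gene Zwilch at a ratio of 1.13, the DNA helicase gene Pif1 at 1.28, and Anp32a and Fem1b. The roles given above for Anp32a and Fem1b are other ones, so the list is wider than its name. Outside the core, Ccnb2, the mitotic cyclin B2, had 83.6, 82.7 and 84.6 FPKM against 84.5, 88.8 and 84.8 FPKM, where the groups overlapped.

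In the list of kinases, phosphatases and small GTPases, 5 of 5 core members had the higher mean, with a median of 0.173. The 10 outside the core had 0.027, and they include Ppcdc and Gnb5, which are none of these. Map2k1, which encodes the ERK-activating kinase MEK1, had 42.2, 43.4 and 44.6 FPKM at 0 nM and 50.7, 47.9 and 51.3 FPKM at 100 nM, a ratio of 1.15. Rab11a, a GTPase of recycling endosomes, had 23.5, 22.2 and 23.4 FPKM against 26.6, 25.7 and 25.9 FPKM, a ratio of 1.13. Rab8b, a GTPase of transport to the plasma membrane, had 12.6, 13.1 and 12.7 FPKM against 15.7, 14.6 and 15.9 FPKM, a ratio of 1.21. The exposed libraries lay apart in all 3 genes. For Map2k5, which encodes the ERK5-activating kinase MEK5, the groups overlapped at a ratio of 1.07. After the core, Mapk6, which encodes the atypical kinase ERK3, had 39.2, 40.0 and 39.6 FPKM against 41.3, 41.6 and 39.7 FPKM, where the lowest exposed library fell within the unexposed range.

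Membrane traffic genes held 7 core members, all with the higher mean, at a lower median of 0.119. Snx1, a sorting nexin of endosomes, stood at a ratio of 1.09 and Vps13c at 1.095. Aagab, a chaperone of clathrin adaptor assembly, was the flattest of them, with 5.68, 5.77 and 4.76 FPKM at 0 nM and 5.17, 5.90 and 5.16 FPKM at 100 nM. Its groups overlapped over most of their range. Outside the core the 5 members of the list had a median of 0.065, and Tmem30a, a subunit of lipid flippases, stood at a ratio of 1.03.

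The 4 core genes of metabolism, lysosome and mitochondria had a median of 0.160, against 0.072 for 17 outside. Hacd3, a dehydratase of very-long-chain fatty acid elongation, had 19.6, 19.6 and 19.3 FPKM at 0 nM and 24.2, 24.0 and 25.1 FPKM at 100 nM. Its ratio of 1.254 came with wide separation: the spread within each group was far smaller than the gap. Cln6, an endoplasmic reticulum protein gene mutated in a lysosomal storage disease, stood at 1.18, and Clpx, the unfoldase of a mitochondrial protease, at 1.08. Lactb, a mitochondrial protein, overlapped between groups at 1.09.

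Of the surface and secreted proteins, the core held only Car12 and Ppib. Car12, a membrane carbonic anhydrase, had 18.8, 19.8 and 19.5 FPKM at 0 nM and 23.9, 23.7 and 23.6 FPKM at 100 nM, a ratio of 1.23 with no overlap. Ppib, the endoplasmic reticulum prolyl isomerase cyclophilin B, had 89.6, 92.2 and 96.3 FPKM against 93.8, 92.8 and 96.9 FPKM, a ratio of 1.02 with overlap. Its neighbours Csnk1g1, a casein kinase, and Snx22, a sorting nexin, stood at 1.14 and 1.09.

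The 5 core genes of transcription and chromatin had a median of 0.189, against 0.059 for 14 outside. Zfp609, a zinc finger protein, had 11.4, 11.3 and 11.2 FPKM at 0 nM and 13.1, 13.1 and 12.8 FPKM at 100 nM, a ratio of 1.15 with no overlap. Snapc5, a subunit of the complex that starts small nuclear RNA transcription, had a ratio of 1.21 but overlapping groups. Polr2m, an RNA polymerase II subunit gene after the core, had 86.1, 85.9 and 84.8 FPKM against 90.7, 89.8 and 91.5 FPKM. Its ratio of 1.06 was small but its groups did not overlap.

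In the ubiquitin and SUMO pathway the 3 core members had a median of 0.172, against 0.030 for 10 outside. Usp3, a deubiquitinase of histones, had 6.49, 6.56 and 6.42 FPKM against 7.65, 7.87 and 7.81 FPKM, a ratio of 1.198. Herc1, a very large ubiquitin ligase, stood at 1.17 and the SUMO ligase gene Pias1 at 1.101. All 3 were higher with no overlap. Outside the core, Nedd4, a ubiquitin ligase of membrane proteins, had 72.0, 70.5 and 72.2 FPKM at 0 nM and 78.6, 78.4 and 73.0 FPKM at 100 nM, a ratio of 1.07. Fbxo22, an F-box protein near the start of the stretch, stood at 1.03.

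The 3 core members of actin, myosin and adhesion had a median of 0.214, against 0.058 for 8 outside. Limma with Benjamini-Hochberg adjustment called 0 of the 11 members of that list, of which 3 were higher at an unadjusted p under 0.05 (10.6% of all genes tested were). Tpm1, a tropomyosin of actin filaments, had 87.5, 90.4 and 88.5 FPKM against 102.9, 100.2 and 94.2 FPKM, a ratio of 1.12. Tln2, a talin that links integrins to actin, stood at 1.22. Plekho2, a pleckstrin-domain protein, had the highest difference of the 143, but its size rested on 1 library: 3.53, 3.63 and 3.55 FPKM at 0 nM and 3.85, 4.14 and 6.37 FPKM at 100 nM. Cgnl1, a junction protein after the core, overlapped between groups at 1.06.

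Of RNA and translation genes the core held 3, with a median of 0.140 against 0.048 for those outside. Rps27l, a paralog of a ribosomal protein, stood at 1.104 and Dis3l, a nuclease of the cytoplasmic exosome, at 1.16. Oaz2, an antizyme that limits polyamine synthesis, was the one core member with the lower mean at 100 nM. It had 27.2, 27.7 and 26.7 FPKM at 0 nM and 27.3, 26.1 and 26.8 FPKM at 100 nM, so the groups overlapped. Rps27l, Oaz2 and Ppib each share at least 10% of their 31-base words with transcripts of other genes, as 13 members do, and their values are uncertain to that degree. The 38 core members below that share all had the higher mean, with a median of 0.172.

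Differences in the core were also described by level, strand and gene length. The core was drawn on these values, so high medians in each class are partly built in. The median difference was 0.172 for 13 members under 5 FPKM and 0.170 for 16 between 5 and 20 FPKM. It was 0.157 for 13 at 20 FPKM or more. The median ratios were 1.17, 1.14 and 1.12, and 13, 16 and 12 of them had the higher mean. The 23 members on the plus strand had a median of 0.155 and the 19 on the minus strand 0.173. Members shorter than the median gene length of 34622 bases had 0.172 and the longer ones 0.167. Across the 42 genes, Spearman's rho of the log2 ratio was -0.23 with mean level and -0.03 with gene length, given as a description of genes that share the same 6 libraries. In 14 of the 42, another gene overlaps on the other strand, such as Pclaf with Trip4, and whether strand was used in quantification is not given in the sources used here.

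The 44 members before the core were split, with 26 higher and a median ratio of 1.02. The groups did not overlap for 7 higher and 5 lower, shares near the 13.7% and 13.3% of all genes tested. By limma with Benjamini-Hochberg adjustment 0 were called higher (4 at an unadjusted p under 0.05) and Imp3 was the one called lower (5 lower at an unadjusted p under 0.05). These 4 and 5 are 9.1% and 11.4% of the 44, near the 10.6% and 10.2% of all genes tested. Imp3, a protein of ribosomal RNA processing, had 58.5, 56.7 and 59.7 FPKM at 0 nM and 53.3, 54.1 and 53.2 FPKM at 100 nM, a ratio of 0.918. Its call was lost when any 1 library was left out, and it shares 17.0% of its words with other genes. Ubl7, a ubiquitin-like protein, had 15.2, 13.7 and 14.4 FPKM against 12.9, 12.8 and 12.9 FPKM. Nptn, the cell adhesion protein neuroplastin, had 19.99, 19.94 and 19.58 FPKM against 18.3, 18.4 and 17.7 FPKM. These 3 genes lay lower in each exposed library than in any unexposed one.

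Higher genes occurred there too. Hexa, the alpha subunit of lysosomal beta-hexosaminidase, had 8.73, 9.49 and 9.51 FPKM at 0 nM and 10.1, 12.5 and 11.8 FPKM at 100 nM, a ratio of 1.24 with no overlap but a wide spread. Etfa, an electron carrier of fatty acid oxidation, stood at a ratio of 0.982, Tspan3, a tetraspanin, at 0.996 and Sin3a, a corepressor scaffold, at 0.962. Rplp1, a protein of the ribosomal stalk, stood at 1.03, and 75.1% of its words occur in transcripts of other genes. Ube2q2, a ubiquitin-conjugating enzyme and the first member of the stretch, stood at 1.02. In these 5 genes the groups overlapped.

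After the core, 47 of 57 members had the higher mean, with a median ratio of 1.06. The groups did not overlap for 23 higher and 3 lower, shares that were 13.7% and 13.3% over all genes tested. Limma with Benjamini-Hochberg adjustment called Cgas, Cd109 and Syncrip higher and none lower, where 1.69% and 2.46% of all genes tested were called. At an unadjusted p under 0.05 in that fit, 19 were higher and 0 lower, against 10.6% and 10.2% of all genes tested. With any 1 library left out, Cd109 was still called and Cgas and Syncrip were not, Nedd4 being called without replicate 3 at 100 nM. With the replicate block 0 were called. Cd109, a membrane-anchored protein that binds TGF-beta receptors, had 8.78, 8.96 and 9.38 FPKM at 0 nM and 11.7, 11.4 and 11.3 FPKM at 100 nM. Its ratio was 1.27, against 1.254 for Hacd3 in the core, and its groups lay far apart. Cgas, the sensor of cytosolic DNA, lies close to it and had 5.43, 5.83 and 5.69 FPKM against 6.77, 6.39 and 6.83 FPKM, a ratio of 1.18. Syncrip, an RNA-binding protein, had 29.96, 31.01 and 29.96 FPKM against 34.0, 33.7 and 32.8 FPKM, a ratio of 1.11.

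Other members there were higher at more spread. Gsta4, a glutathione transferase of lipid peroxidation products, had 8.45, 8.50 and 8.54 FPKM at 0 nM and 9.79, 11.6 and 9.55 FPKM at 100 nM. Ube2cbp had 4.38, 5.72 and 4.79 FPKM against 6.34, 5.80 and 6.44 FPKM, and its lowest exposed library was barely above its highest unexposed one. Eef1a1, the elongation factor and the most abundant member, had 4023, 4016 and 4044 FPKM against 4285, 4192 and 4188 FPKM, a ratio of 1.05. Its groups did not overlap. Its difference of 0.07 became 0 with quantile normalization, which gives genes of the same rank in each library the same value. That setting therefore cannot tell whether so abundant a gene shifted. Of its words, 49.8% occur in transcripts of other genes. Cox7a2, a subunit of cytochrome c oxidase, stood at 1.04 and Tmed3, a cargo receptor of early secretion and the last member of the stretch, at 1.07, both with overlapping groups.

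The 37 members after the core that start under 80 Mb had a median of 0.072, with 33 higher. The 20 from 80 Mb on had 0.053, with 14 higher. The 187 protein-coding genes of that level on the rest of the chromosome beyond 90 Mb had 0.063, with 159 higher (85.0%). Of these, 77 were higher without overlap, where 13.7% of all genes tested were. The 191 before the stretch had 0.019, with 119 higher, the same median as the members before the core. The limits of 55 and 90 Mb therefore marked no step in these values. Over the whole of chromosome 9 the median was 0.049 for 528 genes, higher than on any other chromosome, with chromosome 12 next at 0.045 and X at 0.040. These 528 include the stretch, which was picked as higher, so the first place is partly built in. The 378 genes of chromosome 9 outside the stretch had 0.044, just below chromosome 12.

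Windows of 2.5 Mb put the same differences in another form. They are not independent of how the stretch was chosen and the core drawn. Of 412 windows in the genome with at least 8 genes, those from 62.5 to 65 Mb and from 65 to 67.5 Mb had the highest medians, 0.172 each, with 15 of 16 and 24 of 25 genes higher. There were 6 windows with a median of at least 0.1, and 5 of them were on chromosome 9. The one elsewhere had 0.104. Other windows of chromosome 9 stood out less: 0.117 from 112.5 to 115 Mb, 0.116 from 120 to 122.5 Mb, 0.101 from 12.5 to 15 Mb with 12 of 12 genes higher and 0.097 from 35 to 37.5 Mb with 15 of 15. Medians above 0 were found in 23 of 24 such windows of chromosome 9 and in 193 of 388 elsewhere.

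**Figure D3:**
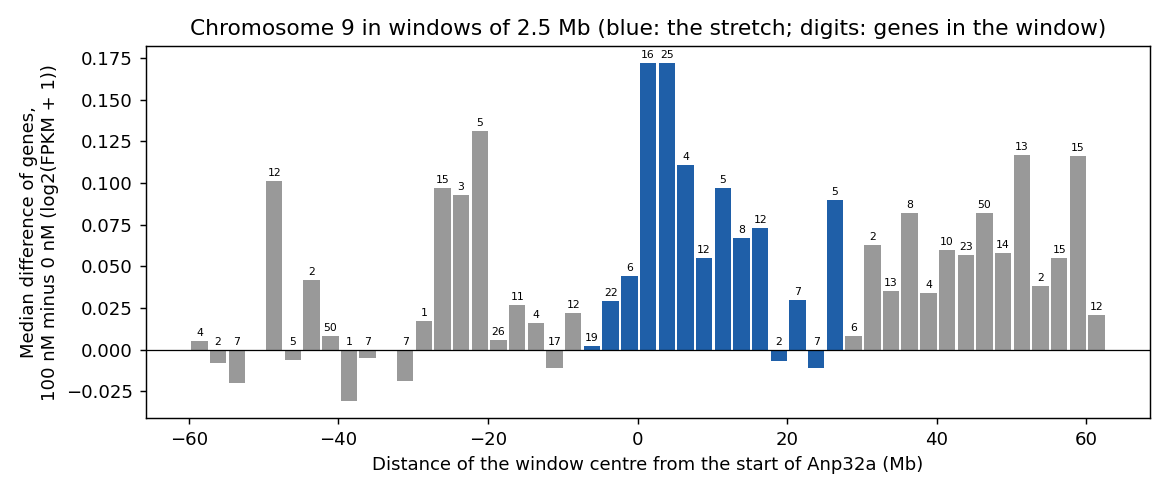
Bars give the median difference in mean log2(FPKM + 1), 100 nM minus 0 nM, of the protein-coding genes in each window of 2.5 Mb along chromosome 9, against the distance of the window centre from the start of Anp32a (Mb). Blue bars lie in the stretch and the digits count the genes. The highest windows with at least 8 genes are the pair just after 0, at 0.172 each.

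Each exposed library showed the shift in the core. The core was drawn on the mean differences of these same libraries, so a gap between the groups there is largely built in. Taken as a median over the 42 members of the deviation from the gene's mean of 6 libraries, the 0 nM libraries stood at -0.090, -0.078 and -0.085 and the 100 nM libraries at 0.096, 0.078 and 0.085. The 100 nM libraries 1, 2 and 3 exceeded every 0 nM library in 35, 37 and 37 of the 42 genes. Within that limit, no one library carried the core. After the core under 80 Mb, the 0 nM libraries stood at -0.036, -0.037 and -0.031 and the 100 nM libraries at 0.042, 0.050 and 0.016. From 80 Mb the groups overlapped, at -0.049, 0.009 and -0.026 against 0.051, -0.002 and 0.021. Before the core they overlapped as well, at -0.013, 0.002 and -0.007 against -0.014, 0.015 and 0.008. On other chromosomes all 6 libraries lay between -0.006 and 0.005.

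**Figure D4:**
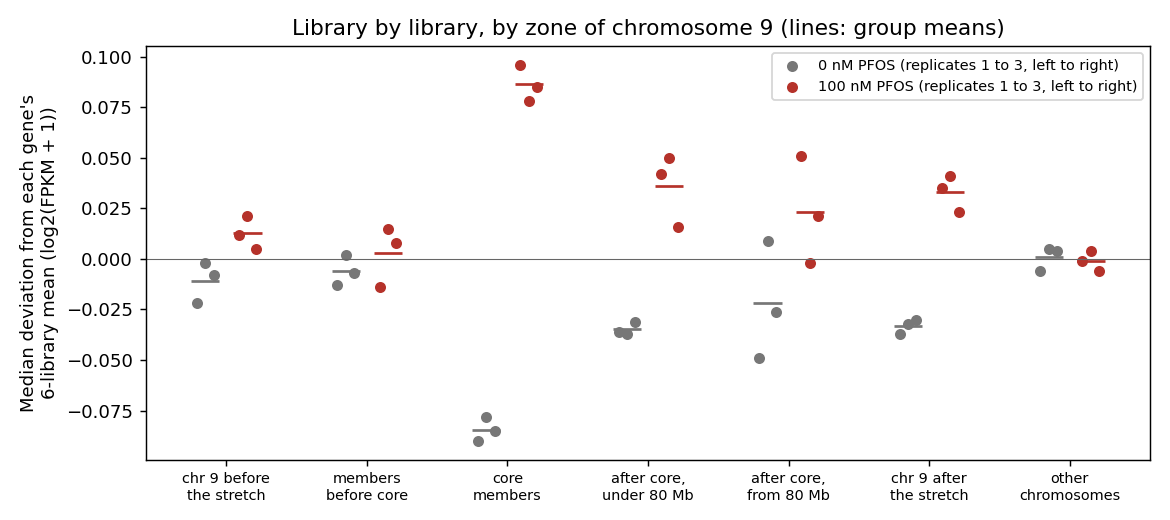
Points give, for each library, the median over genes of the deviation from the gene's 6-library mean (log2(FPKM + 1)), by zone of chromosome 9, and lines give group means. The groups are farthest apart in the core, at -0.090 to -0.078 against 0.078 to 0.096, which largely follows from how the core was drawn.

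The genes left out by the rule lay in the same zones. In the core, Rpl4, a ribosomal protein, had a mean of 1171 FPKM at 0 nM and 1332 at 100 nM (difference 0.19), and Anxa2, a membrane-binding annexin, had 254 and 276 (0.12). Smad3, a transcription factor of the TGF-beta pathway, went the other way, with 18.5 and 17.8 FPKM (-0.050). Outside the core, Pkm, which encodes pyruvate kinase, differed by 0.04, Cox5a by 0.04, Adam10 by 0.05 and Me1 by -0.02. Rpl4 and Anxa2 lay within the middle range of the core members.

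The 6 libraries had sums of 306716 to 309381 FPKM and 21042 to 21591 genes above 0. FPKM is already divided by the sequencing total, so near-equal sums do not show equal depth, which is unknown. One library stood apart: replicate 3 at 100 nM scored 19.4 on the first principal component (34.9% of variance), against -9.58 to 0.06 for the others. It had a sum of 30.1 FPKM over 10 T and NK cell markers, where the other 5 had at most 0.27. Only 2 of these 10 markers had a mean of at least 1 FPKM. In that library Gzmb alone gave 14.9 FPKM of the sum, and Cd3e gave 0.66. Without replicate 3 at 100 nM the core median was 0.159. The sum over the 8 epithelial markers, all of them measured at 1 FPKM or more, was 732 at 0 nM in each library and 765 to 822 at 100 nM. The sum over 7 macrophage markers was 149 to 188 FPKM at 0 nM and 147 to 296 at 100 nM, and over 7 fibroblast markers it was 5.32 to 8.39 in the 6 libraries. Of these, 6 macrophage and 2 fibroblast markers had a mean of at least 1 FPKM. No marker of these lists was at 0 in all libraries. The T and NK cell sums of replicates 1 and 2 at 100 nM were 0.13 and 0.27 FPKM, and their core medians of 0.096 and 0.078 stand above beside 0.085 for replicate 3. The part of these marker sums in the result was not tested.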

How the data were processed

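Poly(A) RNA of 6 libraries was measured, 3 for each dose. Values are FPKM per gene, deposited by the authors for 28418 genes. Per the submitters' processing notes, the tools were StringTie, HISAT2 and fastp, with mm10 and GRCh38 as builds. For the role of GRCh38, tool versions and use of strand, the answer is not given in the sources used here. Of the identifiers, 28350 are in GENCODE M21 (GRCm38), which gave symbols and types, and 25640 have its coordinates, as do 123 of 143 members. Coordinates are those of the deposited tables.

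Limma 3.58.1 in R 4.3.3 (trend, two-sided) was run on log2(FPKM + 1) for genes whose mean reached 1 FPKM, and a gene was called at a Benjamini-Hochberg adjusted p under 0.05. The members and gene lists were chosen with earlier results of these data known. Named members were the 8 highest of at least 5 FPKM whose groups do not overlap, the 4 lowest, the 2 most abundant of each list, the first and last member, and the edges of the run. Predicted genes were left out of the first 2 parts, and 1 gene the rule names is not reported here. Kif23, Glce, Plekho2, Oaz2, Cgas, Syncrip and further genes were named after their values were seen. The fit was tested on simulated data. Depth is unknown: 23.4% to 25.5% of low values lay within 0.1 of whole multiples of a step, so reads were not recovered. The replicate numbers did not pair the libraries. Promoters came from RefSeq (GRCm38.p6). Alternatives covered scaling, pseudocount, filters, moderation, a replicate block and each library left out. Added after seeing the data were the scores of 0.05, 0.1 and 0.15 and leaving out both libraries numbered 3. Python 3.11.15, numpy 2.4.6, pandas 2.3.3 and matplotlib 3.10.9 were used.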

Additional observations from a re-analysis of the deposited data

How the results depend on the processing

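Over all genes, limma with Benjamini-Hochberg adjustment called 487, and 204 with no filter on low values, 294 without the trend, 58 with the replicate block, 122 to 290 with any 1 library left out and 91 without both libraries numbered 3. The share of higher calls was 40.7%, 19.0% with the block (11 higher, 47 lower) and 30.3% without replicate 2 at 100 nM. Members called higher went from 19 to 7 with no filter, 8 without the trend, 2 with the block, 5 to 9 with any 1 library left out and 2 without both libraries numbered 3. Core members called higher went from 16 to 2 with the block. Members called lower went from 1 to 0 with quantile normalization, pseudocounts of 0.1 and 5, no filter, no trend, the block and without both libraries numbered 3. They were 0 to 0 with any 1 library left out and 2 at a filter of 5 FPKM. In the 13 settings with 0 called by limma, 3 to 7 members were lower at an unadjusted p under 0.05.

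The members' median of 0.079 was 0.085 and 0.051 with pseudocounts of 0.1 and 5, and 0.071 to 0.081 with any 1 library left out. The core median stayed between 0.131 and 0.184 over the 15 alternatives run. The start of the run over the whole chromosome moved from 8.02 Mb to 62.06, 62.34 and 62.34 Mb at scores of 0.05, 0.1 and 0.15, and lay at 13.24 Mb with genes of at least 5 FPKM and at 8.02 to 8.99 Mb with any 1 library left out. Its end moved from 124.42 Mb to 122.18, 69.45 and 67.22 Mb at those scores. It was 123.48 Mb with genes of at least 5 FPKM, 123.37 Mb without both libraries numbered 3 and 123.37 to 124.42 Mb with any 1 library left out. The scores set the edges by construction. For other changes the cause was not tested.

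Among 43 named members, 627 values under alternatives lay within 1 SD of the one reported and 14 outside it, and 0 called genes changed sign. Quantile normalization moved the median of all genes by 0.005 and scaling to 1 median by under 0.001. Deviations of same-numbered libraries correlated at -0.053 to 0.006, so the numbers were not taken as pairs. Depth is unknown, so the precision of single genes rests on 3 libraries a group.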

Other observations

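The stretch also holds genes that the rule does not reach. Of protein-coding genes between 0.5 and 2 FPKM, 5 of 5 in the core had the higher mean at 100 nM (median difference 0.14), as had 7 of 8 before it (0.03) and 9 of 13 after it (0.07). Over all genes of at least 0.5 FPKM that are neither members nor left out by the rule, whatever their type and with these included, the counts were 12 of 14 in the core (0.12), 11 of 19 before it (0.016) and 25 of 36 after it (0.07). These genes were examined after the core had been drawn, in the same libraries.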
